A study of Rattus norvegicus with 9 samples.

Results

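The 5 genes described here join the leukocyte adhesion molecules of the endothelial surface to the transcription factor NF-kB that is known to induce them: Icam1 (ENSRNOG00000020679), Vcam1 (ENSRNOG00000014333), Nfkbia (ENSRNOG00000007390), Rela (ENSRNOG00000030888) and Nfkb1 (ENSRNOG00000023258). They are taken by these Ensembl identifiers, with no threshold on a measured value, and are 5 of 32883 genes listed. All 5 were found and all 5 passed the filter on low counts, which kept 12943 genes. The names come with the identifiers and were not checked against an annotation, because the table holds no symbols and the reference table holds no Ensembl identifiers.

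The cells were renal artery endothelial cells of the rat, the lining of the vessel that feeds the kidney, kept in culture. Their total RNA was sequenced in 9 libraries, 3 in each of 3 groups. Normal is named as such, with no treatment stated. Model is the group that the series title ties to angiotensin II (Ang II), a peptide hormone that constricts vessels and raises blood pressure. The treated group received Calycosin and Tanshinone IIA, plant compounds of the isoflavone and the abietane quinone class. The title implies that the treated cells also received Ang II, but the labels name only the compounds, and they give no dose, no duration and no vehicle. All groups share the same culture in serum-containing medium, with cells of passage 2 to 8. Nothing in the labels states that libraries of one group are separate cultures. The p-values therefore set the group differences against the variation among these libraries within groups, and that variation may be technical. The endothelial identity was not analysed here, since marker genes could not be matched to identifiers. In such bulk RNA, a change in the share of cells that express a gene and a change in RNA per cell cannot be told apart.

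NF-kB is a family of dimeric transcription factors. Rela encodes p65, the subunit that carries the transactivation domain, and Nfkb1 encodes p105, the precursor that is processed to the DNA-binding subunit p50. Nfkbia encodes IkBa, which holds the dimer in the cytoplasm and is itself transcribed in response to NF-kB, so that its mRNA is often read as a sign of pathway activity. In endothelial cells exposed to inflammatory cytokines NF-kB induces Icam1 and Vcam1, the surface ligands to which the integrins of rolling leukocytes bind. Activation of NF-kB is mainly a matter of degradation of IkBa protein and entry of p65 into the nucleus, neither of which is measured by RNA counts.

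The upstream regions of all 5 genes were searched because NF-kB is known to act through elements near promoters. The 3 regions shown are those that held the pattern named next. In the 250 bases before the annotated start (RefSeq promoter table, GRCr8 build, all 5 matched by symbol), the letters GGAAANNCC, read on both strands, occurred at 2 places each for Icam1, Vcam1 and Nfkbia and at no place for Rela and Nfkb1. This pattern was chosen after the sequences were read, so its presence in 3 genes and its absence from Rela and Nfkb1 are no test. Of 33469 upstream regions of that length, 5.19% hold it. The NF-kB consensus of 10 letters, read on both strands, matched Vcam1 and Nfkbia once each and did not match Icam1, Rela or Nfkb1. That consensus is held by 6.33% of regions. Both consensus matches overlap a place already counted for the shorter pattern. A match describes letters and says nothing of binding, and the absence of a match says only that these letters are not in this window. Counted back from -1, the last base before the start, the first bases of these places were -218 and -149 for Icam1, -246 and -93 for Vcam1 and -180 and -31 for Nfkbia. Capitals mark the places that match GGAAANNCC or its reverse complement, and each sequence runs 5′ to 3′ along the gene's own strand.
Icam1, chr8:27829607-27829724, plus strand: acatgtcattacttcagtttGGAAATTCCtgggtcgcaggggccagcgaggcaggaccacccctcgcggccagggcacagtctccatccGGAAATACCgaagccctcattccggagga
Vcam1, chr2:206742848-206743033, minus strand: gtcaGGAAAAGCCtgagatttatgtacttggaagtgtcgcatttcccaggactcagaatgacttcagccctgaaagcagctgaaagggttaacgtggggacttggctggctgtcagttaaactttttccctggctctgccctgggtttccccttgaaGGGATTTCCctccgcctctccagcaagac
Nfkbia, chr6:78597075-78597272, minus strand: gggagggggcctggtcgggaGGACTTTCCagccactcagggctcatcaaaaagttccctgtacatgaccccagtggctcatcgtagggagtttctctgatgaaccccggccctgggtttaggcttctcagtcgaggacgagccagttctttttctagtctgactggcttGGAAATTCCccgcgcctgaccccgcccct

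Between genes, levels were compared as deposited FPKM, which divides counts by gene length and library depth. Icam1 was the most abundant of the 5 in every library, at 36.6 to 44.4 FPKM. It lay at or above 83.6% of all tested genes by mean FPKM. Rela followed at 29.9 to 35.1 FPKM, Nfkb1 at 21.7 to 25.1 and Nfkbia at 14.9 to 19.8. Vcam1 was far below them at 0.365 to 0.778 FPKM and lay at or above only 4.47% of tested genes. The order was the same in every group, and no neighbours in it overlapped in any of the 9 libraries. The adhesion molecules thus stood at opposite ends, with Vcam1 at 0.984% to 1.79% of the Icam1 level in the same library. Within a gene, the highest library exceeded the lowest by 1.16-fold for Nfkb1, 1.18-fold for Rela, 1.21-fold for Icam1, 1.33-fold for Nfkbia and 2.13-fold for Vcam1.

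**Figure D1:**
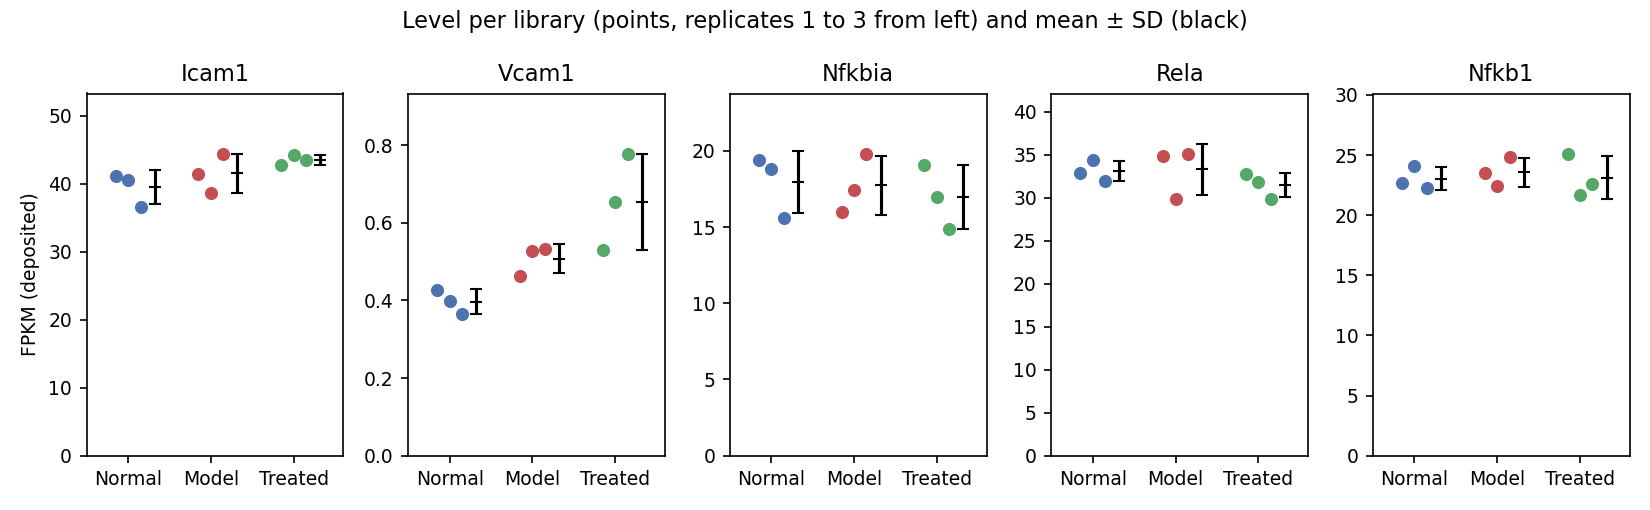
Deposited FPKM of the 5 genes (vertical axes from 0, a separate scale for each gene) in the 3 libraries of the Normal, Model and treated (calycosin and tanshinone IIA) groups; points are libraries, black marks the mean ± SD. For Vcam1 the points lie at 0.365 to 0.428 for Normal, 0.464 to 0.532 for Model and 0.531 to 0.778 for the treated group, while the points of Nfkbia, Rela and Nfkb1 overlap in all 3 groups.

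Counting error was largest for Vcam1, which had the fewest reads. Library totals were 12276955 to 13552435 counts for Normal, 13249897 to 17179252 for Model, and 18256974, 7983580 and 8147259 for treated libraries 1, 2 and 3. Vcam1 had 24 to 52 counts per library, where counting error alone amounts to a coefficient of variation of 16.6% at the mean count. Nfkbia had 190 to 545 counts (5.18%), and Icam1, Rela and Nfkb1 had 595 to 2063 (2.62% to 3.06%).

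Neither the adhesion molecules nor the NF-kB genes passed the test in any comparison. Fitted ratios between groups were 0.937 to 1.02 for the 3 NF-kB genes and 1.04 to 1.09 for Icam1. Vcam1 gave the largest fitted ratios of the 5, 1.28 for Model to Normal and 1.59 for the treated group to Normal. Each gene was tested with edgeR's quasi-likelihood test across all 12943 genes, with a Benjamini-Hochberg adjusted p below 0.05 as the threshold for a call. Between Model and Normal, 0 of the 5 were called, where the share of all genes called was 0%. Between the treated group and Model, 0 of 5 were called against 0.919% of all genes, and between the treated group and Normal 0 of 5 against 2.67%. At an unadjusted edgeR p below 0.05 the members counted 0, 0 and 1, the last being Vcam1. All genes counted 550, 1632 and 2399 of 12943 at that threshold, in the same order of comparisons. In the last comparison 1 of 5 members is near the share of all genes, 2399 of 12943, and does not set Vcam1 apart. DESeq2 also called 0 of the 5 in each comparison, although it gave Vcam1 no adjusted p for the treated group against Model. At the shares of all genes called, a count of 0 among 5 members does not set them apart from other genes. The median log2 fold change of the 5 was 0.034 for Model against Normal, -0.034 for the treated group against Model and 0 for the treated group against Normal. Over all tested genes it was -0.002, -0.001 and 0.001. The comparisons share libraries, so their values are not independent of each other.

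**Figure D2:**
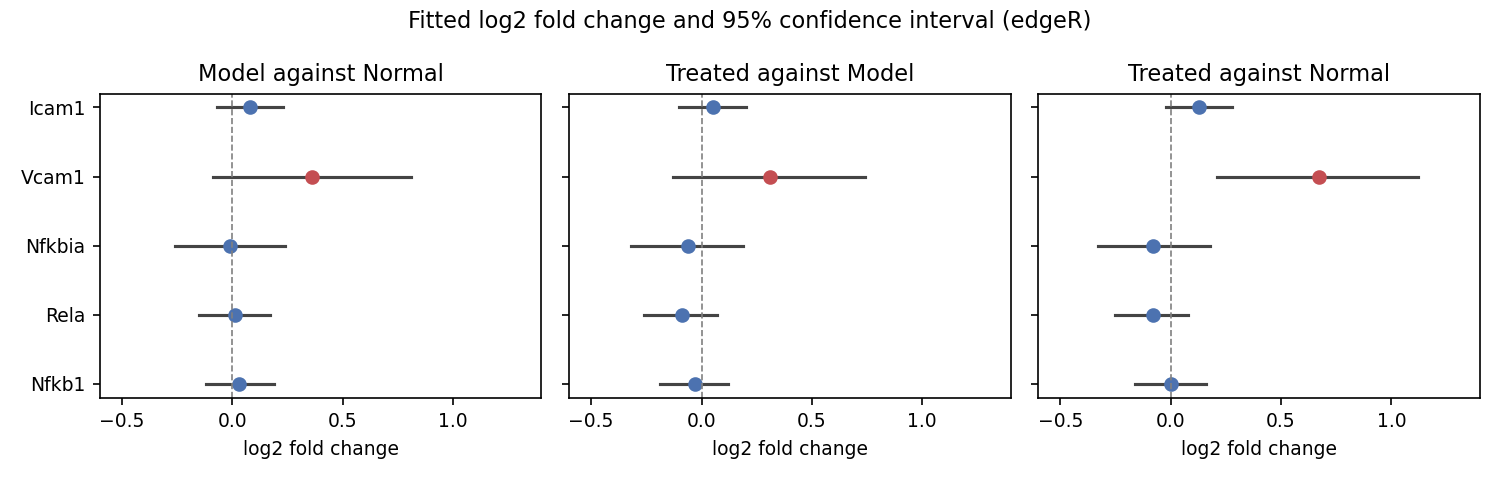
Log2 fold change of each gene (horizontal axis, edgeR fit over 9 libraries) with its 95% confidence interval, in 3 comparisons. The intervals cross 0 in all cases but Vcam1 in the treated group against Normal (0.21 to 1.12), and that difference missed the threshold after adjustment over all genes.

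Icam1 encodes the endothelial ligand of the leukocyte integrins LFA-1 and Mac-1. Its values were 109, 107 and 97.1 counts per 1000000 library counts (CPM, on TMM-scaled library sizes) in Normal libraries 1, 2 and 3. They were 110, 103 and 118 CPM in Model and 113, 116 and 114 CPM in the treated group. The treated libraries had an SD of 1.52 CPM (n = 3) and all lay above the Normal libraries, while Model overlapped both. Icam1 and Vcam1, 2 of the 5, lay wholly higher in the treated group than in Normal, as did 11.9% of all tested genes. The difference between treated and Normal was 0.13 ± 0.07 on the log2 scale (SE; 95% interval -0.02 to 0.28, edgeR adjusted p = 0.341). Model differed from Normal by 0.08 ± 0.07 (edgeR adjusted p = 0.999) and the treated group from Model by 0.05 ± 0.07 (edgeR adjusted p = 0.794). The upper ends of the 95% intervals of these 2 comparisons correspond to a ratio of 1.17 for Model to Normal and of 1.15 for the treated group to Model. The lower end for the treated group against Model, -0.10, is a fall of 1.07-fold.

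Vcam1 encodes the ligand of the integrin VLA-4 on monocytes and lymphocytes. Normal libraries 1, 2 and 3 held 31, 29 and 24 of its reads, Model libraries 33, 45 and 49, and treated libraries 52, 28 and 34. Scaled to depth Normal was at 2.30, 2.14 and 1.96 CPM, Model at 2.49, 2.84 and 2.88, and the treated group at 2.85, 3.48 and 4.15. The 3 Model libraries were all above the 3 Normal libraries, as were the 3 treated libraries, and treated library 1 fell among the Model libraries. Vcam1 was the 1 member wholly higher in Model than in Normal, as were 5.49% of all tested genes.

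The mean of Vcam1 was 2.14 ± 0.172 CPM for Normal, 2.74 ± 0.212 for Model and 3.49 ± 0.650 in the treated group (SD, n = 3 each). The SDs of Normal and Model were smaller shares of their means than counting error alone gives (16.6% at the mean count). The treated group stood 1.59-fold above Normal, a log2 fold change of 0.67 ± 0.21 (SE; 95% interval 0.21 to 1.12). Its unadjusted edgeR p was 0.00742 and its adjusted p 0.117, and it ranked 822 of 12943 genes by p. Model stood 1.28-fold above Normal (0.36 ± 0.21, interval -0.09 to 0.81, edgeR adjusted p = 0.999). The treated group stood 1.24-fold above Model (0.31 ± 0.20, interval -0.13 to 0.74, edgeR adjusted p = 0.566). These 2 groups overlapped, with no treated value of Vcam1 below the lowest in Model. The lower end of this edgeR interval is a fall of 1.09-fold. That bound holds for this fit only, since the SE was larger with DESeq2 (0.32 ± 0.30) and without treated library 3 (0.18 ± 0.22).

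The highest Vcam1 levels were in treated libraries 2 and 3, which also had the lowest totals, 7983580 and 8147259 counts. The part of depth in this was not tested. Treated against Normal, the log2 fold change was 0.53 when treated library 3 was left out and 0.83 when treated library 1 was, with edgeR adjusted p of 0.361 and 0.0939. Treated against Model, the corresponding values were 0.18 and 0.47 (edgeR adjusted p = 0.910 and 0.391). The sign stayed positive and the threshold was missed in each of these fits. Against Normal the sign could hardly change, since all treated libraries lay above all Normal libraries.

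**Figure D3:**
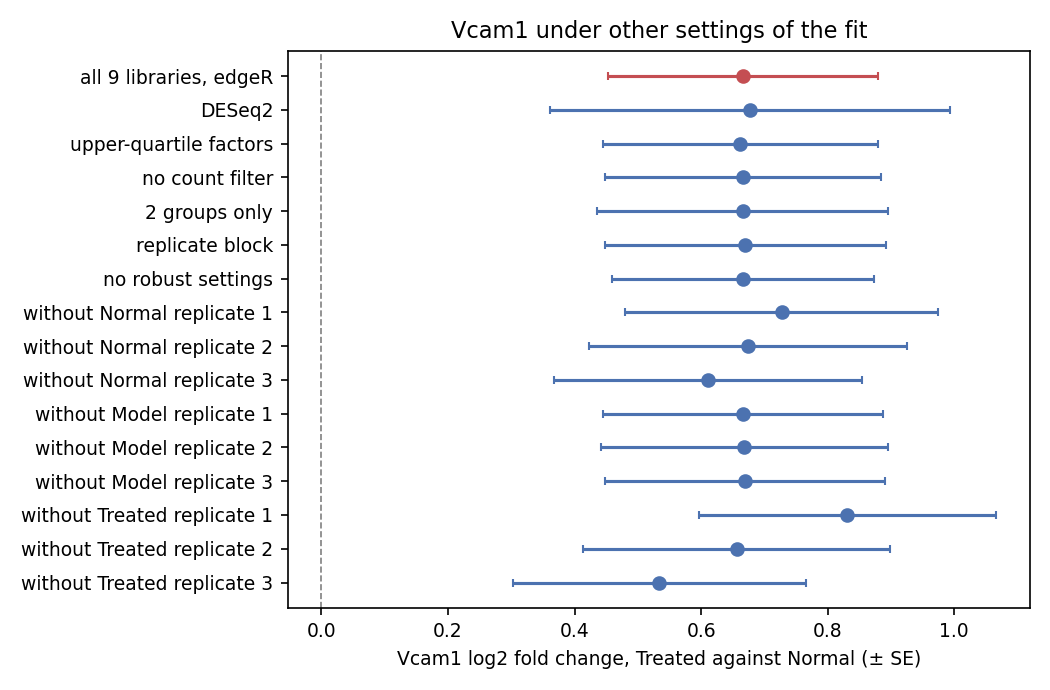
Vcam1 log2 fold change, treated group against Normal, with its standard error (horizontal bars), in the fit to all 9 libraries (red) and under each other setting (blue), named on the vertical axis. All values lie between 0.53 and 0.83, and none had an adjusted p below 0.05.

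Nfkbia, the inhibitor that NF-kB itself induces, was at 30.6, 29.5 and 24.4 CPM for Normal libraries 1, 2 and 3, at 25.0, 27.4 and 31.2 for Model, and at 29.9, 26.5 and 23.2 for the treated group. The groups overlapped over most of their range, and the lowest and highest libraries were in the treated group and in Model. The log2 fold change was -0.01 ± 0.12 in Model against Normal (SE; 95% interval -0.26 to 0.24, edgeR adjusted p = 1). It was -0.06 ± 0.12 in the treated group against Model (interval -0.32 to 0.19, edgeR adjusted p = 0.857) and -0.08 ± 0.12 in the treated group against Normal (interval -0.33 to 0.18, edgeR adjusted p = 0.780). Changes of up to 1.18-fold upward in Model thus fell inside the interval.

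Rela, the p65 subunit, was at 80.7, 84.3 and 78.4 CPM for Normal, at 85.5, 73.4 and 86.6 for Model, and at 79.8, 77.1 and 72.6 for the treated group. Model library 2 was the low one of its group and lay among the treated libraries, so that all groups overlapped. Model differed from Normal by 0.01 ± 0.07 (log2, SE; 95% interval -0.15 to 0.17, edgeR adjusted p = 1). The treated group differed from Model by -0.09 ± 0.08 (edgeR adjusted p = 0.632) and from Normal by -0.08 ± 0.08 (edgeR adjusted p = 0.601).

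Nfkb1, the p105 and p50 gene, was at 88.3, 93.5 and 86.4 CPM for Normal, at 90.9, 86.9 and 96.8 for Model, and at 97.2, 83.4 and 86.7 for the treated group. The treated libraries held both the highest and the lowest of the 9 values. Its log2 fold changes were 0.03 ± 0.07 in Model against Normal, -0.03 ± 0.07 in the treated group against Model and 0.00 ± 0.07 in the treated group against Normal (SE; edgeR adjusted p = 0.999, 0.879 and 0.999). The 95% interval of the last ran from -0.16 to 0.16.

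Ratios of FPKM within a library remove what depth and composition do to both genes alike. Nfkb1 stood at 0.696 ± 0.005 of Rela for Normal, 0.709 ± 0.0381 for Model and 0.736 ± 0.0461 for the treated group (SD, n = 3 each). Nfkbia stood at 0.541 ± 0.0527, 0.534 ± 0.0677 and 0.539 ± 0.0431 of Rela. Both ratios overlapped between all 3 groups. Icam1 relative to Rela was 1.25, 1.18 and 1.14 for Normal, 1.19, 1.30 and 1.26 for Model and 1.31, 1.39 and 1.46 in the treated group. The treated libraries were the highest, with Model library 2 just below them. Vcam1 relative to Icam1 was 0.0101 ± 0.000297 for Normal, 0.0123 ± 0.00122 for Model and 0.0150 ± 0.00276 in the treated group. The Normal libraries held 24 to 31 Vcam1 counts, and counting error alone is 20.4% at 24 counts. The Normal SD is a smaller share of its mean than that, so it does not measure the precision of this ratio. These ratios were chosen after the levels had been seen and are given with no test.

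**Figure D4:**
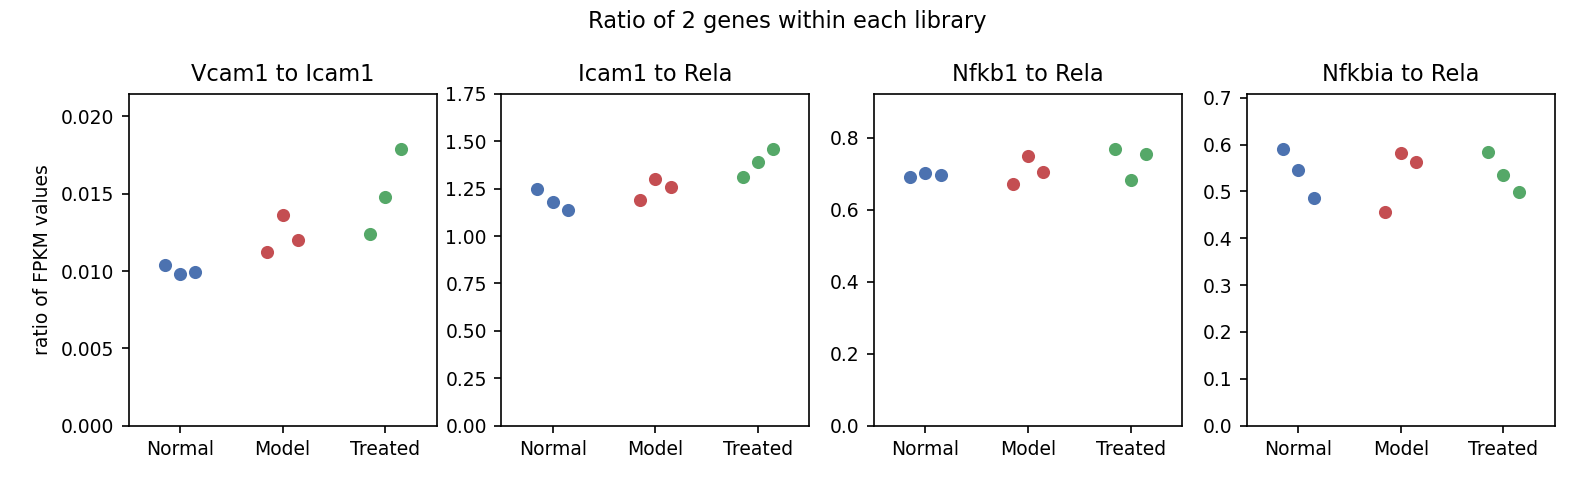
Ratio of the FPKM values of 2 genes in the same library (vertical axes from 0) for the 3 groups; points are libraries. The ratios of Nfkb1 and Nfkbia to Rela overlap between groups. Those of Icam1 to Rela are 1.14 to 1.25 in Normal and 1.19 to 1.30 in Model, which overlap. In the treated group they are 1.31 to 1.46.

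Genes with the most similar pattern were ranked by Pearson r of log2 CPM over the 9 libraries, among genes with a mean of at least 5 CPM. For Vcam1 they were ENSRNOG00000034084 (r = 0.968) and ENSRNOG00000016338 (r = 0.960), first of 10528 genes ranked. ENSRNOG00000034084 was at 7.95, 7.54 and 7.43 CPM for Normal, at 8.47, 8.52 and 9.75 for Model, and at 9.91, 11.8 and 13.1 for the treated group. In the treated group against Normal its log2 fold change was 0.58 (edgeR adjusted p = 0.0338), against 0.67 for Vcam1 (edgeR adjusted p = 0.117). ENSRNOG00000034084 was picked by its likeness to Vcam1 in these same libraries, so its p is no separate evidence about Vcam1. The call of ENSRNOG00000034084 was lost without Normal library 1, 2 or 3 or treated library 2 or 3 (edgeR adjusted p = 0.0515 to 0.146). For Icam1 they were ENSRNOG00000006589 (r = 0.946) and ENSRNOG00000000839 (r = 0.918), neither of which was called in any comparison. With 9 libraries that share 3 groups, and the highest values picked from all genes ranked, these r describe likeness only. The files pair none of these identifiers with names.

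Further genes of the pathway, such as the remaining subunits, inhibitors, kinases and selectins, were listed by symbol, but 0 of the 32883 identifiers matched the reference table. They are not analysed here.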

How the data were processed

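The authors deposited whole-number read counts per Ensembl gene and FPKM values (counts scaled to gene length and depth), per the file headers. Libraries were strand-specific total RNA, per the labels' protocols. CASAVA 1.8 and the build mRatBN7.2 stand in the submitters' processing notes. Not given in the sources used here are the aligner, the counter and its strand setting. Reads of antisense partners may therefore be included.

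Counts of all 9 libraries entered 1 fit in edgeR 4.0.16 (R 4.3.3): filterByExpr (minimum count 10), TMM normalization, robust dispersion and quasi-likelihood settings, group as the only term, no minimum fold. Tested genes hold 99.9% of counts. Intervals are 95%, from the standard error (log2 fold change over the root of F) and are not adjusted for the number of genes. CPM use TMM-scaled sizes, and log2 CPM a prior count of 1. FPKM were used as deposited.

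Alternatives were upper-quartile factors, DESeq2 1.42.0, no filter, a minimum count of 50, 2 groups only, a replicate block, no robust settings and leaving out each library. Replicate pairs differed by a chi-square of 4.27 to 15.3 per degree of freedom, more than counting error alone gives. Each library was counted once, but these values cannot show whether libraries are separate cultures. The text names all 5 members and, for each of Icam1 and Vcam1, the 2 other genes with the highest Pearson r. The members are a list of identifiers and no value enters it, but it was proposed, like the gene lists and tests, with earlier results of these data known. The lncRNA table was not used.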

Additional observations from a re-analysis of the deposited data

How the results depend on the processing

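No member was called in any comparison under any of the alternatives run, and none of the adjusted p-values they gave was below 0.05. With the stricter filter Vcam1 was not tested and 4 members were left. Of 237 log2 fold changes recomputed for the members, 217 kept their sign and 20 changed it, all for Nfkbia, Rela or Nfkb1. Nfkbia in Model against Normal was 0.001 with no count filter, and Nfkb1 in the treated group against Normal was 0.001 with the stricter filter and 0.004 with 2 groups only. With 1 library left out, Model against Normal ranged from -0.103 to 0.058 for Nfkbia, -0.032 to 0.085 for Rela and -0.008 to 0.071 for Nfkb1. The treated group against Model ranged from -0.172 to 0.027 for Nfkbia and -0.107 to 0.011 for Nfkb1, and the treated group against Normal from -0.185 to 0.009 and from -0.073 to 0.045. Vcam1 and Icam1 kept a positive sign in all 3 comparisons under the alternatives run. For Icam1 with 1 library left out, Model against Normal ranged from 0.024 without Model library 3 to 0.127 without Model library 2, and the treated group against Model from 0.001 without Model library 2 to 0.105 without Model library 3.

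The counts over all genes that stand as background moved more. For Model against Normal the count of 0 became 0 to 16 with 1 library left out, the highest without Model library 1. For the treated group against Model the count of 119 became 8 to 215, without treated library 2 and without Model library 2, and for the treated group against Normal the count of 346 became 94 to 671, without treated library 2 and without Normal library 3. DESeq2 called 230 and 553 genes in the last pair of comparisons. With a replicate block the counts were 1, 47 and 302, and Vcam1 in the treated group against Normal had a log2 fold change of 0.67 (edgeR adjusted p = 0.152). The labels do not say that the replicate numbers pair samples. Between groups, 2 of 9 same-numbered pairs had a correlation of deviations above 0.1 (highest 0.286). Of the pairs with other numbers, 1 of 18 did (highest 0.107). Why these counts moved was not tested. Of the 5 members, Vcam1 had the fewest reads, 24 to 52 per library, and the widest intervals. The part of read number in that width was not tested.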
